A study of Mus musculus with 26 samples.

Results

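The genes described here are 41 members of the module around the kinase mTOR, made of its inputs (class I PI3K, AKT, the TSC complex, Rheb, the Rag GTPases with Ragulator, GATOR1 and the sestrins) and its outputs (S6 kinases, 4E-BPs and other translation factors, SGK kinases and Maf1). Members were taken by gene symbol, and all 41 were among the 23420 symbols of the deposited table. The kinase gene Mtor itself was not a member and is given as the targeted gene. RNA sequencing had been done on antigen-presenting cells sorted from mice labelled mTORΔAPC (KO here) and from wild-type littermates (WT). Spleen CD8a dendritic cells (DCs), spleen CD11b DCs, lung CD11b DCs and alveolar macrophages came from mice at steady state. Inflammatory DCs came from lungs of mice of either genotype that had received house dust mite extract, an allergen, intranasally (25 µL at 1 mg/mL, 3 times a week, given as day 17 by the samples' labels and as day 18 by their protocol). The 2 spleen populations had 2 libraries per genotype and the 3 lung populations had 3, which gave 26 libraries in 10 groups. The promoter that drives the deletion, the deleted exons, strain, age and sex of the mice are not given in the labels used here, nor is whether libraries came from separate animals, so p-values measure the spread between these libraries.

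mTOR joins growth factor and nutrient signals to protein synthesis. Growth factors act through class I PI3K and AKT, which relieve the block that the TSC complex puts on the small GTPase Rheb, while amino acids act through the Rag GTPases, which Ragulator tethers to the lysosome and which GATOR1 and the sestrins hold back. Active mTOR complex 1 phosphorylates S6 kinases, 4E-BPs and LARP1, complex 2 phosphorylates AKT and SGK1, and in DCs and macrophages the pathway is known for its part in growth, metabolism and cytokine output. These are mostly controls on protein activity, and the data here are RNA levels.

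Libraries held 7.37 to 14.1 M counted reads and 12992 to 14407 genes above 0. In these bulk populations fewer cells of a type and less RNA per cell cannot be told apart. Mtor RNA in KO against WT, on the log2 scale, was -2.93 in CD8a and -2.36 in CD11b DCs of the spleen, -2.02 in alveolar macrophages and -0.70 in lung CD11b DCs. In inflammatory DCs it was -0.74 and was not called, although its counts were 336 to 404 in WT and 196 to 236 in KO. Marker genes of other cells moved with genotype in several populations. The summed count of 6 red pulp macrophage markers in spleen CD8a DCs was 26100 to 44538 in WT and 4708 to 5147 in KO. In lung CD11b DCs the sum of 8 type 2 DC markers was 61860 to 68840 in WT and 23547 to 34084 in KO. There the monocyte gene Ly6c2 was 53.9 to 177 in WT and 2569 to 3659 in KO. The monocyte and macrophage markers, which include Ly6c2, summed to 90126 to 96663 in WT and 96346 to 135747 in KO, with overlap. The DC receptor gene Flt3 was 1844 to 3066 in WT and 217 to 1071 in KO. The 6 conventional DC markers, which include Flt3, summed to 190714 to 229683 in WT and 134749 to 169276 in KO. Among these Itgax was higher in KO, with 4873 to 6628 in WT and 12801 to 14656.5 in KO. In alveolar macrophages the markers of epithelium, endothelium and stroma summed to 1391 to 1482 in WT and 272 to 597 in KO. There 4 of 4 T cell markers tested were higher in KO, with sums of 9.76 to 12.6 in WT and 65.5 to 116 in KO. Their own markers summed to 36490 to 37356 in WT and 27800 to 30268 in KO. Of these, Siglec5 was 6979 to 7323 in WT and 3408 to 3556 in KO. The 8 type 2 DC markers there summed to 28276 to 28655 in WT and 24662 to 26682 in KO. Among them Itgam was 55.2 to 129 in WT and 1063 to 1777 in KO, opposite to the sum. Inflammatory DCs held little of the DC genes Flt3 (20.1 to 170.1) and Zbtb46 (26.4 to 111). The 6 conventional DC markers, which include both, summed to 80436.5 to 91800.2 in WT and 87975.5 to 128777 in KO. Of these, Itgax was 12583 to 18010 in WT and 25249 to 26931 in KO. Alveolar macrophage markers in inflammatory DCs summed to 7134 to 20967 in WT and 3283 to 5435 in KO. Y-linked genes summed to at most 2.28 in every steady-state WT library, to 660 to 3295 in KO spleen and alveolar macrophage libraries, to 1318, 0.821 and 1.35 in the 3 lung CD11b DC KO libraries, and to 1420 to 2523 in all inflammatory DC libraries. Y-linked reads and genotype therefore cannot be told apart in spleen and alveolar macrophages, and the part of these reads and of other cells in the results below was not tested.

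Members were compared as log2(normalized count + 1) in a limma fit over all 26 libraries, and a gene was called when its Benjamini-Hochberg adjusted p over the 13311 genes tested was under 0.05. All 41 members passed the filter on low counts. In lung CD11b DCs 15 of 41 members were called between KO and WT, where 26.1% of all tested genes were called. Of these, 6 were higher (12.0% of all genes) and 9 lower (14.0%). Alveolar macrophages also had 15 of 41 called against 16.9% of all genes, with 8 higher (10.5% of all genes) and 7 lower (6.39%). Spleen CD8a DCs had 4 of 41 against 5.13%, with 3 higher (1.5%) and 1 lower (3.63%). Spleen CD11b DCs had 1 of 41 against 1.52%, which was higher (1.28%), and inflammatory DCs had 1 of 41 against 3.37%, also higher (1.45%). The median log2 fold change of the members and of all tested genes was 0.03 and 0.00 in CD8a DCs and 0.12 and 0.00 in CD11b DCs of the spleen, -0.17 and -0.05 in lung CD11b DCs, 0.02 and 0.02 in alveolar macrophages, and -0.03 and -0.02 in inflammatory DCs. Of the 41 members, 16 were called in none of the 5 KO comparisons, 17 in 1, 6 in 2, Eif4b in 3 and Larp1 in 4. Pik3cd and Eif4b were called in opposite directions in different cell types. These tallies were not made for all tested genes, so they do not set the members apart from other genes.

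Many of these calls depended on how the fit was set up. With a term for Y-linked reads, 13 of the 15 alveolar macrophage calls were lost (limma, adjusted p between 0.0534 and 0.685), all but those of Pik3r5 and Eif4g1, as were all 4 in spleen CD8a DCs (0.171 to 0.415) and that of Rraga in lung CD11b DCs (0.0577). That term marked libraries with Y-linked reads and varied only within lung CD11b DC KO, replicate 1 against replicates 2 and 3. Those libraries also differed in Flt3 (1071 against 598 and 217). Here and below, values with that term therefore cannot show what Y-linked reads did in spleen or alveolar macrophages. With only the groups compared in the fit, 8 of the 15 lung calls were lost (Eif4b, Eif4e, Eif4ebp2, Lamtor3, Nprl3, Pik3cd, Rraga and Rragc, 0.0724 to 0.202), and 3 in spleen CD8a DCs (Pik3ca, Rps6kb1 and Sesn1, 0.0991 to 0.151). Sample weights ended 6 lung calls (Ddit4, Eif4e, Eif4ebp2, Nprl3, Pik3cd and Rraga, 0.0566 to 0.146) and that of Sesn1 in spleen CD8a DCs (0.083). A term for the number of genes detected ended 6 in alveolar macrophages (Larp1, Pik3ca, Pik3cb, Pik3cd, Rps6kb1 and Rraga, 0.0874 to 0.199) and 3 in lung CD11b DCs (Ddit4, Eif4b and Pik3cd, 0.12 to 0.332). In spleen CD8a DCs edgeR did not call Pik3ca, Rps6kb1 and Sesn1 (0.0532 to 0.0654), and without the filter on low counts Pik3ca and Rps6kb1 were not called (0.0508 and 0.0551).

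**Figure D1:**
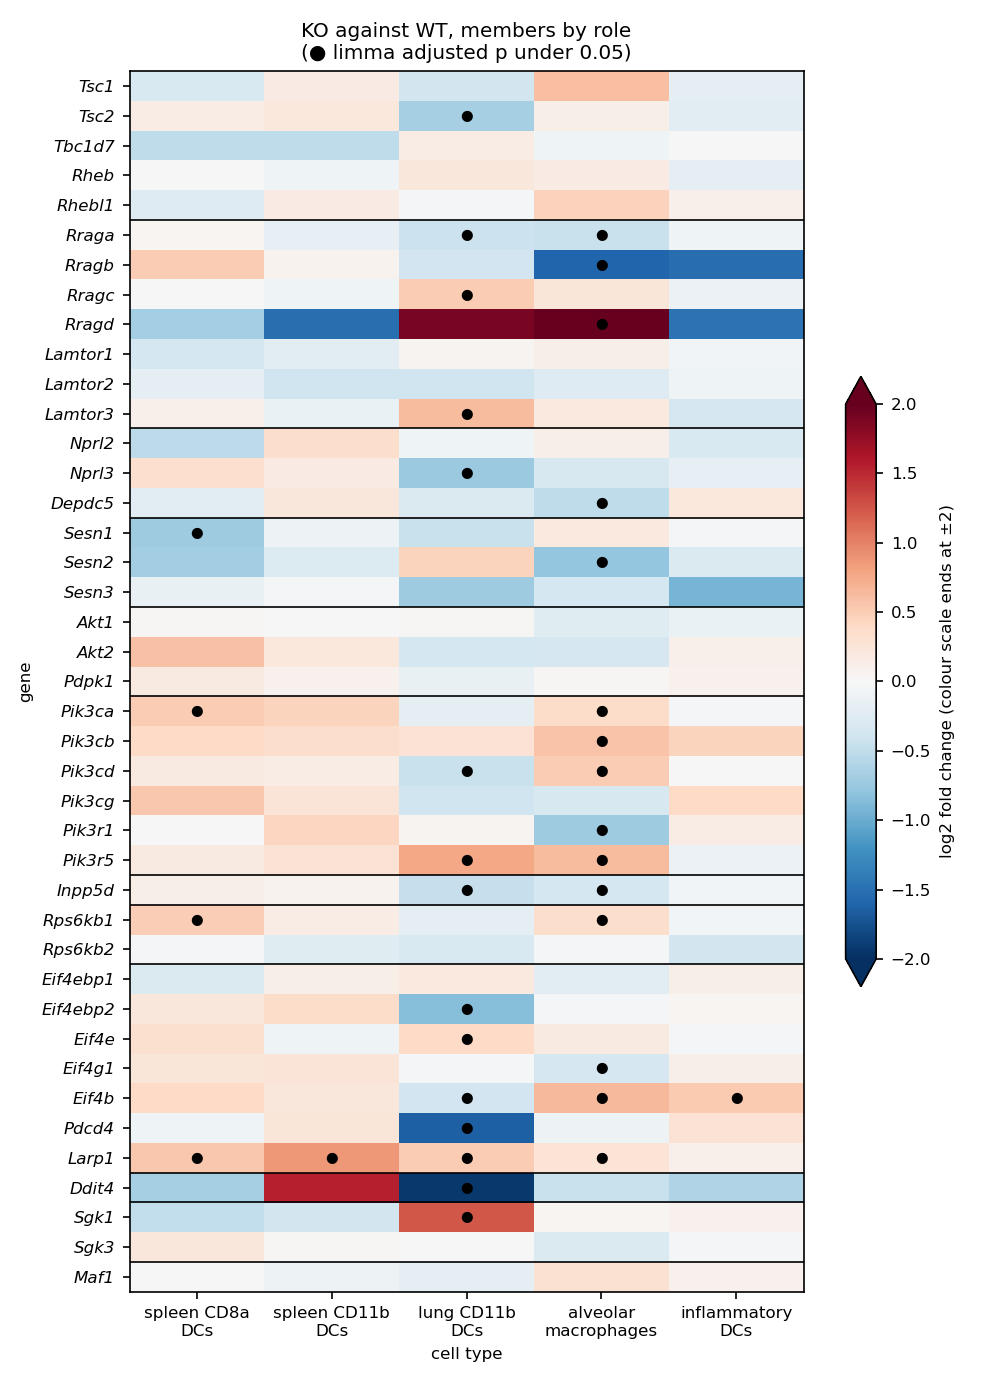
Log2 fold change of KO against WT for the 41 members (rows, by role) in the 5 cell types (columns). Red is higher and blue lower in KO, the colour scale ends at ±2, and a black dot marks a call at an adjusted p under 0.05; the lung CD11b DC and alveolar macrophage columns hold 15 dots each.

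Larp1 was the member called in most populations and was higher in KO in 4 of the 5. It encodes an RNA-binding protein that controls translation of ribosomal protein mRNAs with a 5′ terminal oligopyrimidine tract and is a substrate of mTOR complex 1. Its gene spans positions 58009064 to 58062034 of chromosome 11 (GRCm38). In spleen CD11b DCs its normalized counts were 1082 and 938 in WT and 1857 and 1804 in KO, a log2-scale change of 0.86 ± 0.11 (limma, adjusted p = 7.9e-05). The groups did not overlap, and the call held in all 15 alternative analyses. In spleen CD8a DCs the counts were 1586 and 1694 in WT and 2296 and 2448 in KO, a change of 0.53 ± 0.11 (limma, adjusted p = 0.00287). In lung CD11b DCs they were 1624, 1807 and 1576 in WT and 2455, 2352 and 2336 in KO, a change of 0.51 ± 0.09 (limma, adjusted p = 0.000146). In both populations every KO library was above every WT library. Alveolar macrophages had 1578, 1498 and 1621 in WT and 1638, 2094 and 1948 in KO, a smaller change of 0.27 ± 0.09 (limma, adjusted p = 0.0393) in which KO replicate 1 lay just above the WT libraries. Inflammatory DCs had 2135, 2142 and 2074 in WT and 2214, 2441 and 2158 in KO, and the log2 difference, 0.10, was not called. The spleen CD8a call was lost without KO replicate 2 (limma, adjusted p = 0.0515). The alveolar macrophage call was lost without WT replicates 1, 2 or 3 or KO replicates 2 or 3 (limma, adjusted p between 0.0634 and 0.237).

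**Figure D2:**
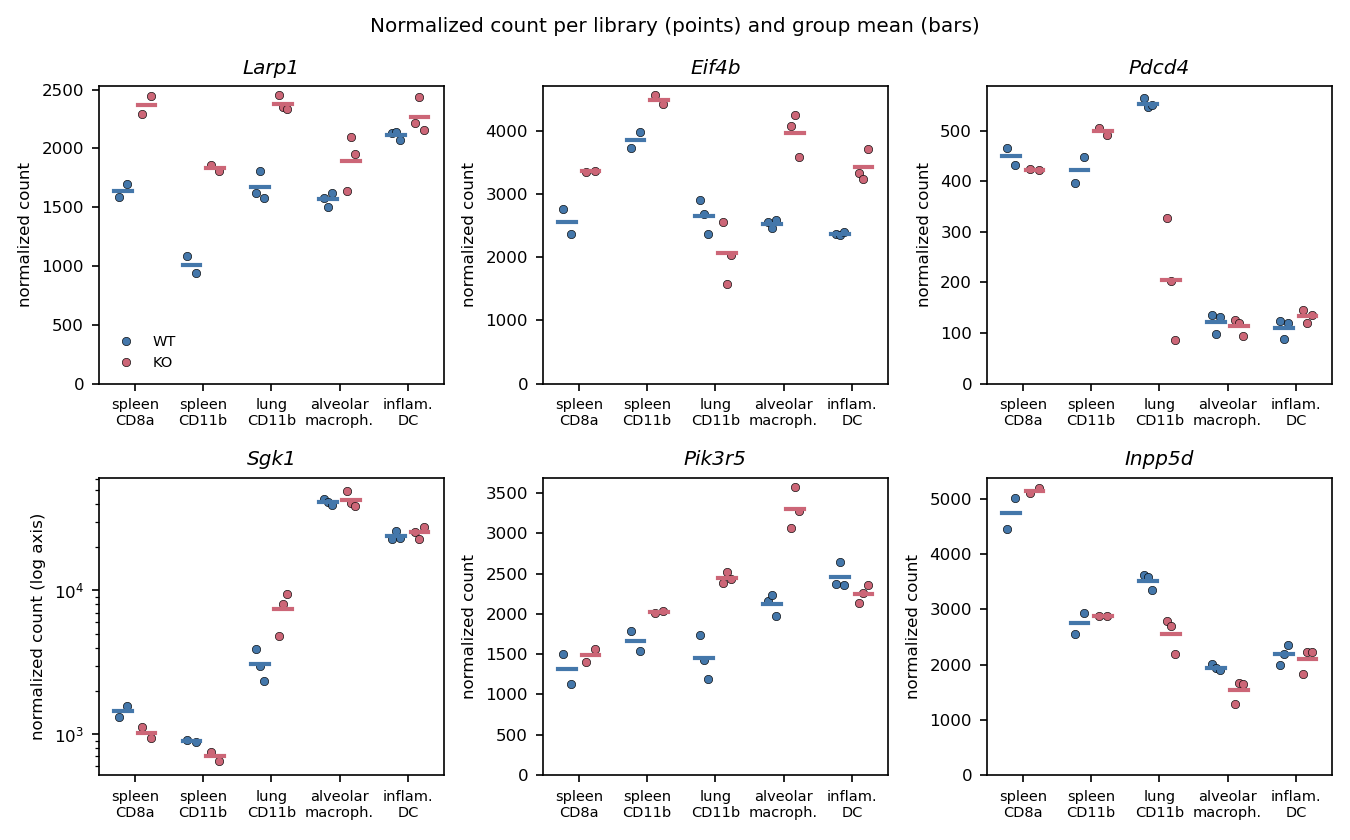
Normalized count of 6 members in each of the 26 libraries (points; bars are group means; WT blue, KO red; the Sgk1 axis is logarithmic, the others start at 0). Larp1 points of KO lie above WT in every cell type, though narrowly in alveolar macrophages and inflammatory DCs. Pdcd4 and Sgk1 separate WT from KO in lung CD11b DCs, and Eif4b is higher in KO alveolar macrophages and inflammatory DCs but not in lung CD11b DCs.

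Eif4b, the helicase cofactor of translation initiation that S6 kinase phosphorylates, spans positions 102073773 to 102097173 of chromosome 15 (GRCm38). Its counts in alveolar macrophages were 2550.4, 2455 and 2593 in WT and 4070.4, 4245 and 3582 in KO, a log2-scale change of 0.64 ± 0.12 (limma, adjusted p = 0.000388). Inflammatory DCs had 2363, 2358 and 2392 in WT and 3334, 3241 and 3708 in KO, a change of 0.53 ± 0.12 (limma, adjusted p = 0.0141), and no KO library of either population lay in the WT range. In lung CD11b DCs the counts were 2902, 2676 and 2369 in WT and 2563, 1582 and 2038 in KO, a fall of -0.38 ± 0.12 (limma, adjusted p = 0.0203) with overlapping groups. There KO replicate 1, the lung KO library with Y-linked reads, was highest. Spleen CD8a DCs (2764 and 2365 in WT and 3351 and 3366 in KO) and spleen CD11b DCs (3726 and 3982 in WT and 4561 and 4432 in KO) had differences of 0.39 and 0.22 that were not called, although KO and WT libraries did not overlap. The call in inflammatory DCs was lost without WT replicate 1 or KO replicate 3 (limma, adjusted p of 0.0535 and 0.0758). The lung call was lost without WT replicate 1, WT replicate 2 or KO replicate 2 (limma, adjusted p of 0.092, 0.0543 and 0.171). In the model with a term for Y-linked reads, the change in alveolar macrophages was 0.13 (limma, adjusted p = 0.685).

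The 250 bases before the transcript start of these 2 genes are shown because they were the members called most often, and those of Rragc because it holds a motif searched for. They come from RefSeq on GRCm38.p6, plus strand, at chr11:58008814-58009063 for Larp1, chr15:102073523-102073772 for Eif4b and chr4:123917183-123917432 for Rragc, which was chosen after its values were seen. Capitals mark the motif CACGTG, which spans positions -112 to -107 from the start of Rragc, and windows in lower case throughout held none of the motifs.
Larp1: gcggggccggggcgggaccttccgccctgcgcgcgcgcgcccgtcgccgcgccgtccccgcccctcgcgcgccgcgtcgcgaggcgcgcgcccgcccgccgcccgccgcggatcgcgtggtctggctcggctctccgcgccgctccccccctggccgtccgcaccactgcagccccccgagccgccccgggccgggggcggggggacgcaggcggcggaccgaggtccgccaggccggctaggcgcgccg
Eif4b: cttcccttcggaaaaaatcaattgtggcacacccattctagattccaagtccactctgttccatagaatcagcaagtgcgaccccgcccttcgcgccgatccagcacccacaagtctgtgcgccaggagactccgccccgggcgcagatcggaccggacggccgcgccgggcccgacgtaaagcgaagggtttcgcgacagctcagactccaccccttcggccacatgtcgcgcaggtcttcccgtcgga
Rragc: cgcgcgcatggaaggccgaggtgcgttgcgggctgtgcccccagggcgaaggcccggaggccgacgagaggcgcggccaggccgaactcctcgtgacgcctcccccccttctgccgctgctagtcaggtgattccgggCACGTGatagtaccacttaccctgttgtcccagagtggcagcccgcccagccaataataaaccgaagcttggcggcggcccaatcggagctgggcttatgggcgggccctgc
The Larp1 window was 86.8% G or C, that of Eif4b 62.0% and that of Rragc 68.0%. Motifs were searched on both strands in the 250 bases upstream of each start, for 52 starts of the 35 members matched by symbol and for all 32851 starts in the table. CACGTG, the E-box core within the element bound by TFEB-family lysosomal regulators, was in 8 member windows (15.4%) and in 6.02% of all windows. The members were Eif4e, Eif4g1, Lamtor1, Rheb, Rragb, Rragc, Sgk1 and Tbc1d7. TGATGNAA, the composite element of the amino acid stress factors ATF4 and CHOP, was in 2 member windows (3.85%; Akt2 and Pik3cd) and in 3.45% of all. The core of the interferon-stimulated response element, GAAA followed after 2 bases of any kind by GAAA, was in 1 member window (1.92%; Sgk1) and in 2.98% of all. Such matches are letters in a window and were not tested for binding.

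Among the other translation members, 3 changed in lung CD11b DCs and 1 in alveolar macrophages. Pdcd4, an inhibitor of the helicase eIF4A that S6 kinase marks for degradation, had counts of 564, 547 and 549.8 in WT and 328, 203 and 85.7 in KO there, a log2-scale change of -1.63 ± 0.29 (limma, adjusted p = 0.000183) or a 3.09-fold fall. All 3 KO libraries were below WT but spread widely, with replicate 1 highest. Eif4ebp2, a 4E-BP that holds back the cap-binding protein eIF4E, fell from 200.4, 232 and 228 in WT to 131, 146 and 94.4 in KO, -0.85 ± 0.20 (limma, adjusted p = 0.0029). Eif4e itself rose, with 899, 1024 and 807 in WT and 1128, 1154 and 1300.5 in KO, a change of 0.40 ± 0.10 (limma, adjusted p = 0.00411). Neither pair of groups overlapped, but both calls were lost with sample weights (limma, adjusted p of 0.0566 for Eif4ebp2 and 0.0696 for Eif4e) and with only the groups compared (0.0724 and 0.123). Eif4g1, the scaffold that joins eIF4E to the ribosome, fell in alveolar macrophages, with 2294, 2209.8 and 2439 in WT and 1746, 1772 and 1959.5 in KO, a change of -0.34 ± 0.08 (limma, adjusted p = 0.00325) with no overlap. Eif4ebp1, the other 4E-BP member, was called in no KO comparison, and its log2 fold changes lay between -0.29 and 0.19.

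The SGK and S6 kinases are the AGC-family kinases below the 2 mTOR complexes. Sgk1, a kinase activated by mTOR complex 2 that controls ion transport, had counts of 3922, 2986 and 2337 in WT and 4827, 8037 and 9427 in KO in lung CD11b DCs, a log2-scale change of 1.25 ± 0.18 (limma, adjusted p = 2.4e-05) or a 2.37-fold rise. Every KO library was above every WT library there, and KO replicate 1 was nearest to WT. The Sgk1 counts were far higher in alveolar macrophages (38756 to 49219 over both genotypes) and inflammatory DCs (22744 to 27738), with differences of 0.04 and 0.08 that were not called. In spleen its differences were -0.49 in CD8a DCs and -0.36 in CD11b DCs, also not called. Sgk3, its relative that binds endosomes, was called in none of the KO comparisons (-0.28 to 0.23). Rps6kb1, the main S6 kinase gene, had 627 and 552 in WT and 855 and 797 in KO in spleen CD8a DCs, a change of 0.49 ± 0.14 (limma, adjusted p = 0.0445). In alveolar macrophages it had 646, 684 and 646 in WT and 809, 824 and 905 in KO, a change of 0.36 ± 0.12 (limma, adjusted p = 0.0338). Groups did not overlap in either population, but neither call held on leaving out any 1 library. Without any 1 of the 4 spleen CD8a libraries, which left 1 in its group, the change was 0.40 to 0.58. Without any 1 of the 6 alveolar macrophage libraries it was 0.31 to 0.39 (limma, adjusted p between 0.0521 and 0.133). A group that loses a library also has a less precise mean, so a lost call does not show that it rested on that library. Exons of Rps6kb1 share 155 bases with Rnft1 on the other strand. Rps6kb2, the second S6 kinase gene, was between -0.36 and -0.02 and was never called. Maf1, the repressor of RNA polymerase III that mTOR complex 1 inhibits, was between -0.20 and 0.30 and was never called.

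The class I PI3K genes, which carry the growth factor signal, held calls in 3 populations. Pik3r5 encodes the regulatory subunit p101 of the form activated by G protein-coupled receptors, and it rose in both steady-state lung populations. Its counts in lung CD11b DCs were 1739, 1422 and 1187 in WT and 2378, 2527 and 2430.4 in KO, a log2-scale change of 0.77 ± 0.12 (limma, adjusted p = 3.2e-05). In alveolar macrophages they were 2159, 2241 and 1969 in WT and 3067, 3572 and 3280.4 in KO, a change of 0.64 ± 0.12 (limma, adjusted p = 0.000307). Neither population had an overlap, and both calls held in all 17 alternatives. The catalytic partner gene Pik3cg was called in no KO comparison (-0.40 to 0.55). Pik3ca, the widely expressed catalytic subunit alpha, rose in spleen CD8a DCs (535 and 474 in WT and 761 and 677 in KO, 0.51 ± 0.15 (limma, adjusted p = 0.0476)) and in alveolar macrophages (633, 647 and 581 in WT and 707, 856 and 856 in KO, 0.37 ± 0.12 (limma, adjusted p = 0.0363)). Pik3cb, catalytic subunit beta, rose in alveolar macrophages, with 482, 444 and 468 in WT and 754, 651 and 660.5 in KO, a change of 0.56 ± 0.17 (limma, adjusted p = 0.026). Its log2 fold change was above 0 in every population (0.29 to 0.56). Each KO library was also above WT in both spleen populations and in inflammatory DCs, but those differences were not called. The 3 called comparisons of Pik3ca and Pik3cb had no overlap between genotypes, yet each call was lost on leaving out some libraries. For Pik3ca these were any of the 4 spleen CD8a libraries (limma, adjusted p between 0.0689 and 0.323) and any alveolar macrophage library other than KO replicate 1 (0.0606 to 0.144), and for Pik3cb any alveolar macrophage library other than KO replicate 2 (0.051 to 0.107).

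Pik3cd, the leukocyte subunit delta, moved in opposite directions in the steady-state lung populations. In alveolar macrophages its counts were 1539.6, 1251 and 1529 in WT and 1869, 2208 and 2064 in KO, a rise of 0.51 ± 0.15 (limma, adjusted p = 0.0179) with no overlap. Lung CD11b DCs had 2244, 2290.2 and 1991 in WT and 2198, 1304 and 1406 in KO, a fall of -0.45 ± 0.15 (limma, adjusted p = 0.0285), where KO replicate 1 lay inside the WT range. Pik3cd is on chromosome 4 at positions 149649168 to 149702571, 1.09 Mb from Mtor. The alveolar macrophage call was lost without WT replicate 2, KO replicate 2 or KO replicate 3 (limma, adjusted p of 0.113, 0.0846 and 0.0519), and with a term for Y-linked reads the value turned to -0.19 (adjusted p = 0.605). The lung call was lost without WT replicate 1, WT replicate 2, KO replicate 2 or KO replicate 3 (limma, adjusted p between 0.0768 and 0.169). Pik3r1, the regulatory subunit p85 alpha, fell in alveolar macrophages from 935, 734 and 918 in WT to 459, 549 and 565 in KO, -0.71 ± 0.14 (limma, adjusted p = 0.000731), with no overlap. With the Y-linked term its value was -0.53 (limma, adjusted p = 0.181).

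Inpp5d encodes SHIP1, a phosphatase that removes the lipid made by PI3K in blood cells, and it was lower in KO in both steady-state lung populations. In lung CD11b DCs its counts were 3616, 3591 and 3345 in WT and 2792, 2706 and 2186 in KO, a log2-scale change of -0.46 ± 0.11 (limma, adjusted p = 0.00289). Alveolar macrophages had 2002, 1929.5 and 1897 in WT and 1283, 1659 and 1657 in KO, a change of -0.35 ± 0.11 (limma, adjusted p = 0.0271). KO libraries were below all WT libraries in both, and the alveolar macrophage call was lost without WT replicate 1, 2 or 3 or KO replicate 1 (limma, adjusted p between 0.0583 and 0.205). Of the kinases below PI3K, Akt1 (-0.24 to 0.03), Akt2 (-0.35 to 0.58) and Pdpk1, which encodes PDK1 (-0.14 to 0.17), were called in none of the KO comparisons. The 95% intervals of these differences lay between -0.42 and 0.25 for Akt1, -0.66 and 0.96 for Akt2 and -0.38 and 0.47 for Pdpk1. Akt2 in KO alveolar macrophages was below every WT library (582.5, 538 and 625 in WT, 439, 446 and 489 in KO), with a log2 change of -0.34 (adjusted p = 0.128), and it was called in 4 of the 17 alternatives.

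The TSC complex is the brake between AKT and Rheb. Tsc2, its GTPase-activating subunit, fell in lung CD11b DCs from 828, 696 and 756 in WT to 566, 434 and 446 in KO, a log2-scale change of -0.66 ± 0.13 (limma, adjusted p = 0.00058). The groups did not overlap, and the call held in all 17 alternatives. Exons of Tsc2 share 693 bases with Pkd1 on the other strand, and whether counting used strand was not given. Tsc1, Tbc1d7, Rheb and Rhebl1, the other 4 genes of the group, were called in no KO comparison, with log2 fold changes between -0.51 and 0.61. Tsc1 had the highest of these, in alveolar macrophages, with 154, 138 and 106 in WT and 183, 202 and 217 in KO and a difference of 0.61 (adjusted p = 0.143). Ddit4 encodes REDD1, a stress-induced protein that acts through the TSC complex to inhibit mTOR. Its counts in lung CD11b DCs were 210.2, 350.0 and 156 in WT and 93.0, 26.3 and 79.6 in KO, a change of -1.94 ± 0.57 (limma, adjusted p = 0.0141) or a 3.83-fold fall with no overlap. That call was lost without WT replicate 2 or KO replicate 2 (limma, adjusted p of 0.0731 and 0.0977), with changes of -1.62 and -1.38. In spleen CD11b DCs Ddit4 was higher in each KO library, with 70.0 and 59.2 in WT and 236 and 154 in KO, but the difference of 1.55 (adjusted p = 0.347) was not called.

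Among the Rag GTPases, which bind mTOR complex 1 as pairs of RagA or RagB with RagC or RagD, Rraga was lower in KO in both steady-state lung populations. Its counts were 716, 686 and 944 in WT and 520.3, 565 and 656 in KO in lung CD11b DCs, -0.42 ± 0.13 (limma, adjusted p = 0.0157), and 513, 514 and 518 in WT and 380.5, 386 and 373 in KO in alveolar macrophages, -0.44 ± 0.13 (limma, adjusted p = 0.0163). The groups did not overlap in either. Rragc rose in lung CD11b DCs, with 1464, 1533 and 1104 in WT and 1711, 1794 and 2305 in KO, a log2-scale change of 0.50 ± 0.11 (limma, adjusted p = 0.00169) with no overlap, which was not called with only the groups compared (limma, adjusted p = 0.0899). In alveolar macrophages Rragc was also higher in each KO library (2939.8, 2836 and 2899 in WT and 3480.2, 3537 and 3259 in KO), and the log2 difference, 0.24 (adjusted p = 0.152), was not called. Exons of Rragc share 264 bases with a gene on the other strand. The lung Rraga call was lost without WT replicate 3 or KO replicate 1 (limma, adjusted p of 0.105 and 0.0575), and that in alveolar macrophages without WT replicate 3 or KO replicate 3 (0.0518 and 0.0524).

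The low-count Rag genes had larger fold changes. Rragd in alveolar macrophages had 4.6, 6.6 and 4.3 in WT and 29.2, 34.9 and 36.5 in KO, a log2-scale change of 2.50 ± 0.74 (limma, adjusted p = 0.0198), with every KO library well above WT. In lung CD11b DCs it had 2.2, 10.6 and 14.5 in WT and 31.0, 11.5 and 72.2 in KO, which differed by 1.90 (adjusted p = 0.061) with overlapping groups, and in inflammatory DCs the direction was opposite, with 35.6, 115 and 80.0 in WT and 36.4, 25.2 and 15.1 in KO and -1.48 (adjusted p = 0.385). Neither was called. Rragb, on the X chromosome, fell in alveolar macrophages, with 32.0, 22.1 and 16.3 in WT and 7.1, 4.5 and 10.0 in KO, a change of -1.58 ± 0.44 (limma, adjusted p = 0.0124). Inflammatory DCs had Rragb counts of 9.8, 8.1 and 16.0 in WT and 1.9, 4.0 and 3.8 in KO, and the log2 difference, -1.53 (adjusted p = 0.0537), was not called. These values are close to the filter of 10 normalized counts, and adding 1 count before taking logs makes their fold changes smaller. The Rragd call was lost without WT replicates 1 or 3 or KO replicates 2 or 3 (limma, adjusted p between 0.0591 and 0.0673), and the Rragb call without WT replicate 1 or KO replicate 2 (0.0769 and 0.0793).

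Ragulator, the lysosomal anchor of the Rags, had 1 of its 3 member genes called. Lamtor3 rose in lung CD11b DCs, with 425, 412 and 505 in WT and 537, 879.9 and 689 in KO, a log2-scale change of 0.63 ± 0.13 (limma, adjusted p = 0.00072) with no overlap, which was not called with only the groups compared (limma, adjusted p = 0.0792). In inflammatory DCs it was lower in each KO library, with 1369, 1456 and 1369.8 in WT and 1094, 1069 and 1144 in KO, but the difference of -0.34 (adjusted p = 0.166) was not called. Lamtor1 (-0.35 to 0.12) and Lamtor2 (-0.40 to -0.09) were called in no KO comparison. GATOR1, the complex that switches RagA and RagB off, is encoded by 3 members. Nprl3 fell in lung CD11b DCs, with 205, 184 and 236 in WT and 146, 105 and 121 in KO, a change of -0.75 ± 0.18 (limma, adjusted p = 0.00349) with no overlap, and its exons share 1340 bases with Mpg on the other strand. That call was lost with sample weights (limma, adjusted p = 0.0902) and with only the groups compared (limma, adjusted p = 0.103). Depdc5 fell in alveolar macrophages, with 239.8, 267 and 296 in WT and 151, 212 and 201 in KO, a change of -0.52 ± 0.17 (limma, adjusted p = 0.0422) with no overlap. The Depdc5 call was lost without WT replicates 2 or 3 or KO replicates 1 or 3 (limma, adjusted p between 0.0569 and 0.234). Nprl2 was called in no KO comparison (-0.52 to 0.35).

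Sestrins pass leucine and stress signals to GATOR. Sesn2, the leucine-binding sestrin, fell in alveolar macrophages, with 337, 300.2 and 305 in WT and 144, 192 and 222 in KO, a log2-scale change of -0.77 ± 0.17 (limma, adjusted p = 0.00234) with no overlap. With the Y-linked term its value was -0.92 (limma, adjusted p = 0.0534). In spleen CD8a DCs each KO library was also below WT (343 and 355 in WT and 216 and 214 in KO), and the log2 difference, -0.70 (adjusted p = 0.0572), was not called. Lung CD11b DCs had 390.0, 423 and 302 in WT and 536, 424 and 550.4 in KO, with a difference of 0.44 (adjusted p = 0.0631) and KO replicate 2 just above the highest WT library. Sesn1, a target of p53 and FOXO factors, fell in spleen CD8a DCs, with 206 and 231 in WT and 149 and 119 in KO, a change of -0.71 ± 0.21 (limma, adjusted p = 0.0483) with no overlap. That call was lost on leaving out any 1 of the 4 libraries (limma, adjusted p between 0.074 and 0.373). In that population red pulp macrophage markers differed as given above, and their part in the Sesn1 value was not tested. Sesn3 had few counts (0.9 to 118 over all libraries) and was called in no KO comparison.

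The KO effect itself was then compared between cell types, with each difference tested in the same fit. These tests share groups with the comparisons above and with each other. Between spleen CD8a and spleen CD11b DCs 0 of 41 members differed by limma (2.45% of all genes did). The count was also 0 by edgeR and by DESeq2, and 4 members had an unadjusted p under 0.05 by limma. Between lung and spleen CD11b DCs 12 differed (12.5% of all genes), with 4 higher (5.86%) and 8 lower (6.6%) in lung. Among those called, Sgk1 had the largest positive difference, 1.61 ± 0.29 (limma, adjusted p = 0.000996), and Ddit4 the largest negative, -3.49 ± 0.90 (limma, adjusted p = 0.0124). Between alveolar macrophages and lung CD11b DCs 10 differed (16.8% of all genes), 7 with the more positive effect in alveolar macrophages (10.2%) and 3 with the more negative (6.6%). Of these, Pdcd4 had the largest positive difference, 1.53 ± 0.40 (limma, adjusted p = 0.0106), and Sesn2 the largest negative, -1.21 ± 0.24 (limma, adjusted p = 0.00121), while Eif4b, at 1.03 ± 0.17 (limma, adjusted p = 0.00018), had the smallest p. Inflammatory DCs differed from lung CD11b DCs at 12 members (13.0% of all genes), 4 upward (6.08%) and 8 downward (6.95%), with Pdcd4 at 1.91 ± 0.40 (limma, adjusted p = 0.00278), Lamtor3 at -0.97 ± 0.18 (limma, adjusted p = 0.000784) and Pik3r5 at -0.89 ± 0.16 (limma, adjusted p = 0.000796). They differed from alveolar macrophages at 5 (7.93% of all genes), 3 upward (2.34%) and 2 downward (5.59%), among them Pik3r1 at 0.86 ± 0.20 (limma, adjusted p = 0.00717) and Pik3r5 at -0.76 ± 0.16 (limma, adjusted p = 0.00372). Inflammatory DCs and the steady-state cells also differ in allergen treatment, which cannot be told apart from cell type here. Inflammatory DC libraries held Y-linked reads in both genotypes and alveolar macrophage libraries only in KO. Y-linked reads therefore cannot be told apart from the difference of KO effects between these 2 populations. The fall in Mtor RNA differed between populations as given above, and its part in these differences was not tested.

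**Figure D3:**
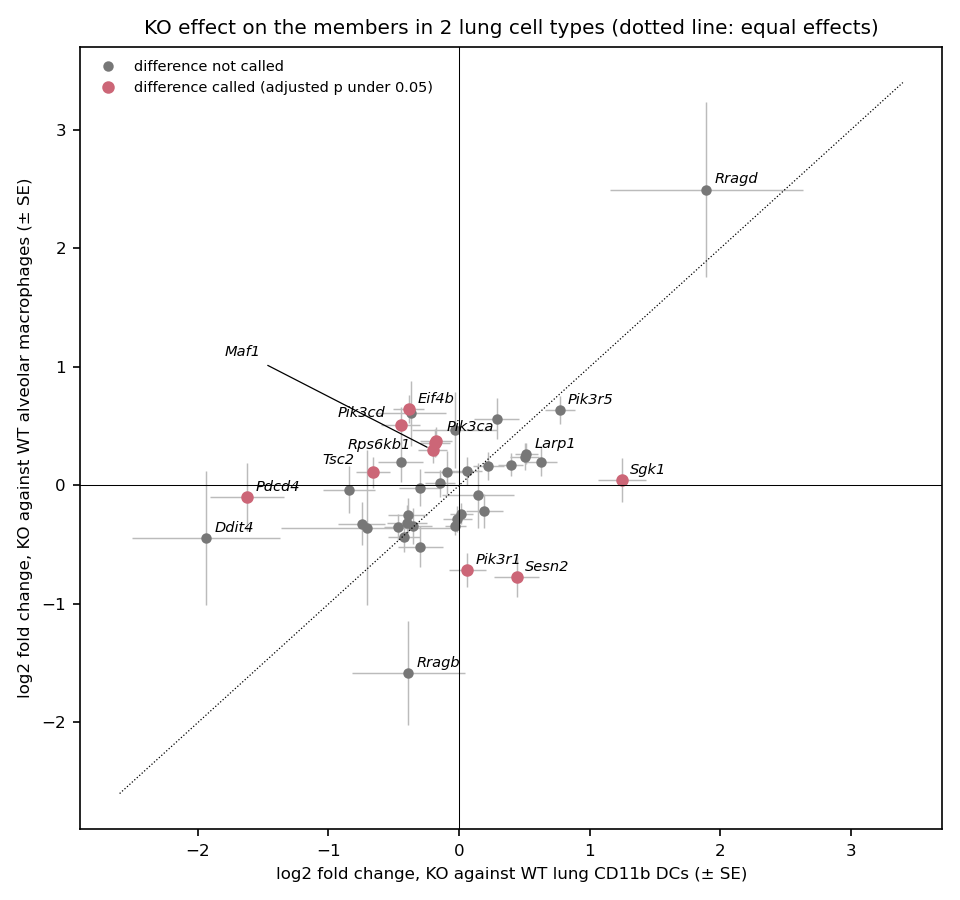
Log2 fold change of KO against WT in lung CD11b DCs (horizontal) and alveolar macrophages (vertical) for the 41 members, with standard errors as grey lines; red points are the 10 members whose effects differed between the cell types, and the dotted line marks equal effects. Sgk1 and Pdcd4 lie far out along the horizontal axis near 0 on the vertical, and Eif4b and Pik3cd lie at upper left.

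Wild-type cells showed how strongly each branch was expressed, given here as normalized count per kilobase of annotated exons (mean ± SD, 2 libraries in spleen and 3 in lung) so that genes can be compared. Sgk1 reached the highest level of any member, with 183 ± 4.40 in spleen CD11b DCs, 293 ± 35.1 in spleen CD8a DCs, 629 ± 162 in lung CD11b DCs, 4876 ± 347 in inflammatory DCs and 8423 ± 442 in alveolar macrophages, where it ranked 27 of 21785 genes. Ddit4 went the other way within the lung, from 136 ± 57.1 in lung CD11b DCs to 14.0 ± 8.48 in inflammatory DCs and 2.32 ± 1.47 in alveolar macrophages. Akt1 lay between 460.4 ± 0.05 (spleen CD11b DCs) and 846 ± 17.2 (alveolar macrophages), and Akt2 between 52.4 ± 8.51 (spleen CD8a DCs) and 81.5 ± 6.10 (alveolar macrophages), so Akt1 was above Akt2 in all 5 cell types. Of the catalytic PI3K genes, Pik3cd had the highest mean in 4 of 5 cell types (for example 560.4 ± 27.0 in spleen CD11b DCs), although in alveolar macrophages Pik3cd (230.0 ± 26.2) and Pik3cg (221 ± 9.35) were within their spread. In spleen CD8a DCs Pik3cb (337 ± 17.0) and Pik3cd (315 ± 51.0) did not differ beyond their spread. Pik3cb was at 64.6 ± 2.70 in alveolar macrophages, close to Pik3ca at 68.2 ± 3.81. Rragc (953 ± 62.3 in inflammatory DCs) was far above Rragd (14.9 ± 7.70) in every cell type, and Rraga (519 ± 38.1 in spleen CD8a DCs) above Rragb (39.0 ± 4.96). Eif4ebp1 stood at 343 ± 81.5 in lung CD11b DCs and 127 ± 15.8 in spleen CD11b DCs, and Eif4ebp2 at 38.0 ± 2.95 and 35.1 ± 6.45. Exon lengths came from GENCODE on GRCm38 and cover all annotated isoforms of a gene.

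**Figure D4:**
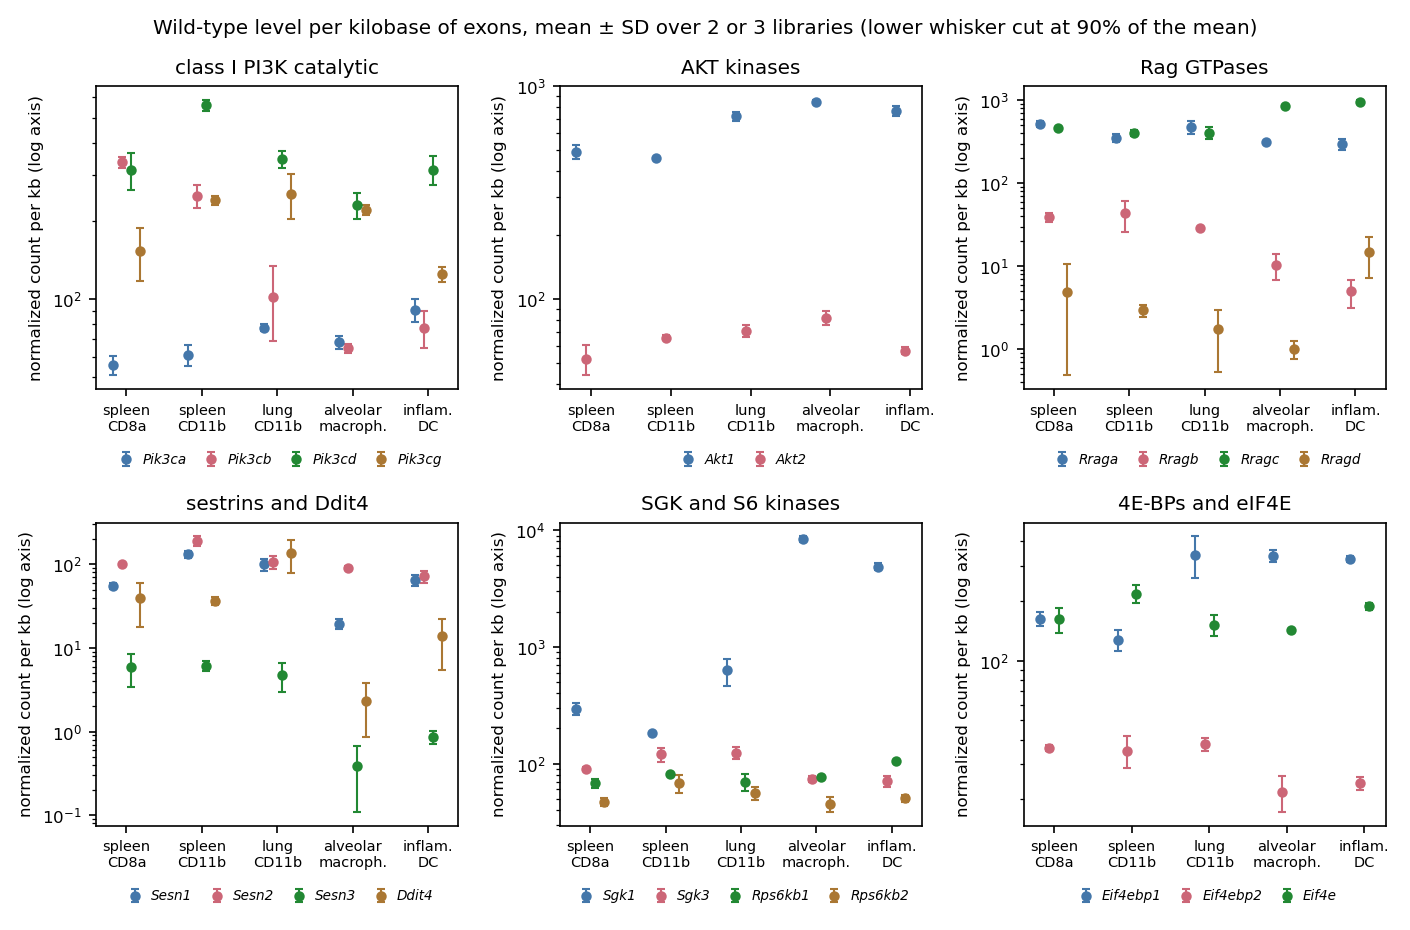
Wild-type level of 6 gene families as normalized count per kilobase of exons (logarithmic axis) in the 5 cell types; points are means and whiskers SDs over 2 libraries in spleen and 3 in lung, with lower whiskers shortened where the SD nears or exceeds the mean. Sgk1 climbs to 8423 in alveolar macrophages, Ddit4 is lowest there at 2.32, and Akt1 stays above Akt2 throughout.

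Differences between wild-type cell types, as log2 fold changes from the same limma fit, were as follows. Spleen CD8a DCs against spleen CD11b DCs had 15 of 41 members called (23.0% of all genes), 7 higher (12.2%) and 8 lower (10.8%). Higher in CD8a DCs were Inpp5d 0.79, Larp1 0.70, Sgk1 0.67, Nprl2 0.60, Rraga 0.55, Rheb 0.43 and Eif4g1 0.28, and lower were Sesn1 -1.26, Sesn2 -0.92, Pik3cd -0.84, Pik3cg -0.67, Depdc5 -0.61, Eif4b -0.59, Eif4e -0.43 and Sgk3 -0.40. None of these 15 had overlapping libraries, but some members that were not called, such as Rragc, Lamtor2 and Akt1, did not overlap either. With 2 libraries per group, values often separate without a difference. The share of all tested genes without overlap was not counted, here or in the KO comparisons above. Lack of overlap therefore does not set the members apart from other genes. Lung CD11b DCs against spleen CD11b DCs had 18 called (34.9% of all genes), 13 higher (21.1%) and 5 lower (13.8%). Higher in lung were Ddit4 1.79, Sgk1 1.75, Eif4ebp1 1.41, Larp1 0.73, Akt1 0.65, Tsc2 0.60, Pik3r1 0.48, Rraga 0.44 and Eif4g1 0.43 and, with values from 0.36 to 0.37, Pik3ca, Rheb, Inpp5d and Lamtor1. Lower in lung were Pik3cb -1.35, Sesn2 -0.85, Pik3cd -0.69, Eif4b -0.54 and Eif4e -0.53.

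Alveolar macrophages against lung CD11b DCs had 22 members called (51.2% of all genes), 7 higher (24.0%) and 15 lower (27.2%). Higher in alveolar macrophages were Sgk1, the 2 Ragulator genes Lamtor3 and Lamtor2, and Rragc, at 3.77, 1.15, 1.11 and 1.10 in that order, followed by Pik3r5 0.57, Eif4g1 0.34 and Akt1 0.23. Lower were the stress-linked genes Ddit4 -5.66, Sesn3 -3.62 and Sesn1 -2.33, the translation inhibitors Pdcd4 -2.20 and Eif4ebp2 -0.81 and the Rags Rragb -1.47 and Rraga -0.59. The PI3K-side genes Inpp5d -0.86, Pik3cd -0.60, Pik3cb -0.59 and Pik3r1 -0.51 were lower too, as were Rhebl1 -0.86, Sgk3 -0.74, Tsc1 -0.68 and Maf1 -0.37. Inflammatory DCs against lung CD11b DCs had 26 called (47.5% of all genes), 12 higher (23.7%) and 14 lower (23.8%). Y-linked genes summed to 1420 to 2523 in these WT inflammatory DCs and to at most 1.61 in WT lung CD11b DCs. Y-linked reads, allergen treatment and cell type cannot be told apart in this comparison. Higher in inflammatory DCs were Rragd 3.08, Sgk1 2.99, Lamtor3 1.65, Rragc 1.23, Tbc1d7 0.79, Pik3r5 0.78, Lamtor2 0.75, Rps6kb1 0.59, Lamtor1 0.48, Larp1 0.35, Eif4e 0.32 and Eif4g1 0.24. Lower were Ddit4 -3.39, Rragb -2.47, Pdcd4 -2.33, Sesn3 -2.32, Pik3r1 -1.08, Sgk3 -0.81, Rraga -0.69, Inpp5d -0.69, Eif4ebp2 -0.65, Sesn1 -0.62, Sesn2 -0.57, Depdc5 -0.48 and Maf1 -0.33, together with Pik3cg, whose 95% interval was -1.32 to -0.68. In both comparisons Rragc and Lamtor3 were higher and Rraga, Rragb and Ddit4 lower than in lung CD11b DCs, whose WT libraries they share.

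The rest of the pathway was followed through 87 other genes in the table, of which 81 were tested, including the mTOR complexes, GATOR2, AMPK, folliculin, the insulin and IGF1 receptors and further translation factors. In spleen CD8a DCs 2 were higher in KO, among them the elongation factor gene Eef2 (0.55 (adjusted p = 0.00319)), and 1, Mtor, was lower (3.7% of the 81, against 5.13% of all genes). In spleen CD11b DCs 3 were higher (Igf1r 1.68 (adjusted p = 0.017), Inppl1 0.98 (adjusted p = 0.0415) and Irs2 1.08 (adjusted p = 0.0481)) and Mtor was lower (4.94% against 1.52%). Lung CD11b DCs had 10 higher and 16 lower (32.1% against 26.1%). Those with the smallest p were Fnip2, a partner of folliculin (a rise of 1.89 ± 0.23 (limma, adjusted p = 1.82e-06)), Ndrg1, whose protein SGK1 phosphorylates (2.97 ± 0.43 (limma, adjusted p = 2.25e-05)), the AMPK subunit gene Prkag2 (-1.12 ± 0.17 (limma, adjusted p = 3.39e-05)) and the kinase gene Rps6ka1 (-0.82 ± 0.13 (limma, adjusted p = 3.86e-05)). Alveolar macrophages had 8 higher and 8 lower (19.8% against 16.9%), and those with the smallest p included Mtor, the ribosomal protein gene Rps6 (0.82 ± 0.10 (limma, adjusted p = 1.18e-06)) and Fnip2 (1.46 ± 0.23 (limma, adjusted p = 5.3e-05)). Inflammatory DCs had 3 higher (3.7% against 3.37%), among them Eef2 (0.43 (adjusted p = 0.00873)) and Rps6 (0.38 (adjusted p = 0.0313)). The genes named for alveolar macrophages and lung CD11b DCs held in all 17 alternatives. In spleen CD11b DCs the Igf1r call was lost without any 1 of the 4 libraries (limma, adjusted p between 0.0552 and 0.181), and those of Inppl1 (0.113 to 0.434) and Irs2 (0.249 to 0.572) without WT replicate 2 or KO replicates 1 or 2. In inflammatory DCs the Rps6 call was lost without any library other than WT replicate 1 (limma, adjusted p between 0.0629 and 0.125). The Rps6 call was also lost there with only the groups compared (0.065) and with the detected genes term (0.0734). With the Y-linked term the Eef2 value in spleen CD8a DCs was 0.20 (limma, adjusted p = 0.567), and in spleen CD11b DCs the calls of Igf1r, Inppl1 and Irs2 were lost (0.0672, 0.242 and 0.736), with Irs2 at 0.34. By edgeR, Inppl1 and Irs2 were not called (0.0588 and 0.0723), and Irs2 was not called with a pseudocount of 0.25 (0.0533) or without the filter (0.061).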

How the data were processed

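RNA from sorted cells was sequenced after RNeasy Micro purification (RNA integrity number above 8.5) and Clontech and Nextera XT library preparation, per the labels' protocols. The authors used STAR 2.3.1s with mm10, HTSeq for counting and DESeq2 1.10.1, per the submitters' processing notes. Which annotation, strand setting and HTSeq version they used is not stated there. What they deposited is a signal per gene and library, equal to a count over a size factor. Their steps gave whole reads for 100% of values (tolerance 1e-06 reads), size factors of 0.754 to 1.48, and 7.37 to 14.1 M reads per library. The design assumed normalized counts, and these were tested as such, as log2(normalized count + 1).

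Groups came from the labels' source names, with replicates numbered in accession order. Genes with a normalized count of at least 10 in at least 2 libraries (13311 of 23420 symbols) were fitted with limma 3.58.1 in R 4.3.3, with 10 group means over all 26 libraries, a mean-variance trend and Benjamini-Hochberg adjustment within each contrast. Errors beside log2 fold changes are moderated standard errors. Alternatives were pseudocounts of 0.25 and 8, no filter, TMM and upper quartile scaling, edgeR 4.0.16 and DESeq2 1.42.0 on the recovered reads, sample weights, a term for Y-linked reads, only the groups compared, leaving out each library and, chosen after seeing the data, a term for the number of genes above 0. The steps were tested on simulated data. With 2-fold changes the share of false calls exceeded the adjusted p threshold in every KO comparison. That share was 17.0% in alveolar macrophages, 15.5% in spleen CD11b DCs and 12.0% in spleen CD8a DCs. Inflammatory DCs had 10.3% and lung CD11b DCs 5.33%. With 4-fold changes the share was 17.0%, 12.6%, 10.4% and 8.01% in the same order, still above the threshold. Only lung CD11b DCs, at 3.65%, were then below it. Many 2-fold changes were missed in the spleen groups.

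Each called member was named with its fold change, other members by range, and of the other pathway genes up to 4 called with the smallest p per KO comparison. The members and gene lists were chosen with earlier results of these data known. Gene positions and exon lengths came from GENCODE (GRCm38), and promoters from RefSeq (GRCm38.p6). Protein sequences were not used here. A pathway gene that the rule would name is not reported here.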

Additional observations from a re-analysis of the deposited data

Results flagged for a closer look

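The KO effect on 39 member and cell type pairs differed between 2 cell types in a test of the difference itself (limma, adjusted p under 0.05). Values below are differences of log2 fold changes with the first-named cell type minus the second. The tests share libraries, so they are not independent of each other, and no explanation was tested.

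For lung CD11b DCs minus spleen CD11b DCs, the outputs differed by Sgk1 1.61, Eif4e 0.48, Pdcd4 -1.87, Eif4ebp2 -1.22 and Eif4b -0.61. The TSC branch and the PI3K side differed by Ddit4 -3.49, Tsc2 -0.88, Pik3ca -0.61 and Inpp5d -0.54, and the nutrient branch by Lamtor3 0.75, Rragc 0.60 and Nprl3 -0.92. Of these 12 calls, those of Sgk1, Tsc2 and Pdcd4 held in all 10 fits that left out a library. In the fit with a Y-linked term only Sgk1 was called, and with only the groups compared 2 members were.

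For alveolar macrophages minus lung CD11b DCs, the outputs differed by Pdcd4 1.53, Eif4b 1.03, Rps6kb1 0.54, Maf1 0.50 and Sgk1 -1.20. The inputs differed by Pik3cd 0.96, Tsc2 0.77, Pik3ca 0.55, Pik3r1 -0.78 and Sesn2 -1.21. Of these 10 calls, 7 (Sgk1, Pik3r1, Eif4b, Tsc2, Pdcd4, Sesn2 and Pik3cd) held in all 12 fits that left out a library, and Eif4b and Sesn2 held in all 23 alternatives. For Maf1 neither population had a call of its own, with effects of 0.30 in alveolar macrophages and -0.20 in lung CD11b DCs.

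For inflammatory DCs minus lung CD11b DCs, the outputs differed by Pdcd4 1.91, Eif4b 0.91, Eif4ebp2 0.88, Larp1 -0.42, Eif4e -0.42 and Sgk1 -1.16. The inputs differed by Pik3cg 0.79, Rragc -0.62, Sesn2 -0.73, Pik3r5 -0.89, Lamtor3 -0.97 and Rragd -3.38. Of these 12 calls, those of Sgk1, Pik3r5, Eif4b, Pdcd4, Lamtor3 and Rragc held in all 12 fits that left out a library.

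For inflammatory DCs minus alveolar macrophages, the differences were Pik3r1 0.86, Pik3cg 0.71, Eif4g1 0.47, Pik3r5 -0.76 and Rragd -3.98. Of these 5 calls, those of Pik3r5, Pik3r1 and Eif4g1 held in all 12 fits that left out a library. Rragd rested on KO effects of -1.48 in inflammatory DCs and 2.50 in alveolar macrophages, at counts of 4.3 to 115.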

How the results depend on the processing

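No paired analysis was run because the labels number no replicates across groups. Spleen KO replicates were alike in CD8a and CD11b DCs in Y-linked reads and in the X-linked gene Xist. Replicate 1 had Y-linked sums of 977 and 932 with Xist at 3620 and 3092. Replicate 2 had sums of 3049 and 3295 with Xist at 12.0 and 21.4. Whether these libraries share mice was not tested. Changing the scaling moved no median of all genes by more than 0.1 on the log2 scale. Over all called members and alternatives, 2363 values kept their direction and their side of the threshold, 440 kept the direction but lost the call, and 1 reversed, Pik3cd in alveolar macrophages (-0.19 with the Y-linked term, which was estimated from the lung CD11b DC KO libraries since no other group varied). Members called in KO against WT, given as the count in the report, then under the alternatives that moved it by more than 1.5 times, then as the range leaving out a library, were as follows. Spleen CD8a DCs had 4, then 2 without the filter, 1 by edgeR, 0 with the Y-linked term (limma, 8 at an unadjusted p under 0.05, where DESeq2 without that term called 5), 1 with only the groups compared, and 0 to 2 leaving out a library. Spleen CD11b DCs had 1, then 2 with sample weights, 2 with only the groups compared, and 1 to 1 leaving out a library. Lung CD11b DCs had 15, then 9 with sample weights, 7 with only the groups compared, and 13 to 19 leaving out a library. Alveolar macrophages had 15, then 27 with sample weights, 8 with the Y-linked term, 23 with only the groups compared, and 7 to 11 leaving out a library. Inflammatory DCs had 1, then 2 with a pseudocount of 0.25, 4 with sample weights, 3 with the detected genes term, and 0 to 1 leaving out a library. Calls over all tested genes moved too. Leaving out a library gave 2786 to 4262 in lung CD11b DCs (3471 with all libraries) and 1678 to 1826 in alveolar macrophages (2247). Inflammatory DCs had 208 to 412 (448). All-gene counts under the other alternatives are not given here. For differences of KO effects, lung minus spleen CD11b DCs had 12, then 1 with the Y-linked term, 2 with only the groups compared, 6 with the detected genes term, and 4 to 15 leaving out a library. Alveolar macrophages minus lung CD11b DCs had 10, then 2 with the Y-linked term, 5 with the detected genes term, and 7 to 13. Inflammatory minus lung CD11b DCs had 12, then 5 with only the groups compared, and 7 to 15. Inflammatory DCs minus alveolar macrophages had 5, then 13 with sample weights, 10 with only the groups compared, and 3 to 5. Spleen CD8a minus CD11b DCs had 0 by limma (4 at an unadjusted p under 0.05), 0 by edgeR and 0 by DESeq2 (5 unadjusted in each), and 0 in every other fit run. Between WT cells, spleen CD8a against CD11b DCs had 15, then 9 with only the groups compared, and 9 to 10 leaving out a library, lung against spleen CD11b DCs had 18 and 13 to 15, alveolar macrophages against lung CD11b DCs had 22 and 19 to 21, and inflammatory against lung CD11b DCs had 26, then 16 with the Y-linked term, and 21 to 25. Leaving out a spleen library left 1 in its group, which was assumed to vary like the other groups. Fits with fewer samples have fewer degrees of freedom, and a group that loses a library has a less precise mean. The cause of the other shifts was not tested. With 2 or 3 libraries per group and Rragd, Rragb, Sesn3 and Ddit4 at mean normalized counts of 2.41 (Ddit4) to 5.18 (Rragd) in their lowest groups, smaller changes of those genes were not detectable at this depth.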
